A study of Mus musculus with 4 samples.

Results

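The data described here are the gene rows of a total RNA sequencing count table for 10 targets of the transcription factor p53 that act in DNA repair, metabolism and stress adaptation. They were taken by their symbols (Trp53inp1, Sesn1, Sesn2, Rrm2b, Polk, Xpc, Ercc5, Aen, Ephx1 and Gadd45a) from 47937 genes in the table. The rule names symbols and no measured value, but the symbols were chosen with earlier results of these data known. The cells were mouse embryonic fibroblasts (MEF cells), connective tissue cells grown from mouse embryos, which the labels give as a cell line, with the wild-type genotype in the untreated libraries and no other genotype named for the genistein libraries. An untreated group and a genistein group of 2 libraries each were compared, and genistein, a plant isoflavone, was given at 50 µM for 24 h. Both groups have the same serum-containing growth medium in the labels, and whether the untreated cells received the solvent of genistein is not given there, though the study's methods for other assays describe untreated cells as given DMSO alone. Nothing in the labels says that the libraries of a group came from separate cultures, so the p-values measure the spread between these libraries, which may be technical.

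The p53 protein is held at a low level by Mdm2 and is stabilised when kinases such as Atm and Atr sense damaged DNA. It then binds DNA as a tetramer and raises the transcription of its targets. The genes described here have varied roles in that response. Some remove or bypass DNA lesions, some supply deoxynucleotides, and some lower oxidative stress, slow growth signalling through mTORC1 or detoxify reactive compounds. Aen and Gadd45a are also linked to apoptosis and to cell cycle arrest. Several also answer to other stress factors. Sesn2 and Gadd45a are known targets of ATF4, the effector of the integrated stress response, and Ephx1 and Sesn2 are known targets of NRF2, the main regulator of antioxidant genes.

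The libraries held between 28591958 and 31464284 counts over genes and repeats. The summed level of 10 fibroblast markers lay from 54058 to 55291 normalised counts per kilobase of exon in the untreated libraries and from 50746 to 51728 in the genistein libraries. Of these markers, 9 had at least 10 counts in every library and 2 of them rose and 6 fell, while Thy1, often used to define fibroblasts, was at 0 in every library. The summed level of the 6 blood cell markers was 52.6 to 66.8 in the untreated libraries and 168 to 169 in the genistein libraries, with Adgre1, Cd3e and Hbb-bs at 0. Only 1 blood cell marker had at least 10 counts in every library, and only 1 was tested, which rose. The summed level of the 6 skeletal muscle markers was 15.1 to 19.6 and then 89.7 to 95.3, with Myod1 and Ckm at 0. Only 2 of the muscle markers were tested, and both rose. The 6 epithelial markers went from 267 to 269.6 in the untreated libraries to 86.0 to 87.1 in the genistein libraries, with Epcam at 0. Only 3 epithelial markers were tested, and all 3 fell. The 6 endothelial markers summed to 3.60 to 4.15 untreated and 10.8 to 12.7 with genistein, with Cldn5 at 0, and Kdr was the only one with enough counts to be tested and rose. The 6 neural markers summed to 1.37 to 1.48 untreated and 1.89 to 1.98 with genistein, with Gad1, Rbfox3 and Snap25 at 0 and no marker tested. The part of these shifts in the results below was not tested. In bulk RNA a change in the number of cells of a type and a change in the RNA of each cell cannot be told apart.

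Short stretches of the promoters are shown because p53 binds paired decamers, and a promoter that holds such a decamer can be compared with the rest of the genome. RefSeq windows of 300 bases, from 250 before to 50 after a start site (GRCm38.p6), were at hand for 7 of the 10 genes, in 10 windows; Trp53inp1, Rrm2b and Xpc had none. The p53 half-site consensus, searched on both strands, was present in 5 of these 10 windows, belonging to Gadd45a, Sesn1, Polk and Aen (both Aen windows hold the same match), and in 8.36% of all 32851 windows. A pair of CATG cores at the spacing of a full p53 site was in 0 of the 10 windows and in 0.712% of all windows. The antioxidant response element TGACNNNGC, to which NRF2 binds, was in the Sesn2 window alone among the 10 and in 12.4% of all windows. Each stretch below is 30 bases long, reads 5′ to 3′ along the gene's own strand, and has the match in capitals. A match is a run of letters and not a measured binding site.
Gadd45a, p53 half-site, chr6:67037428-67037457, minus strand: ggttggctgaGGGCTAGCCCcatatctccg
Sesn1, p53 half-site, chr10:41887256-41887285, plus strand: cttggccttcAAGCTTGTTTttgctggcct
Polk, p53 half-site, chr13:96519399-96519428, minus strand: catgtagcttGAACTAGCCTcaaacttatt
Aen, p53 half-site, chr7:78895927-78895956, plus strand: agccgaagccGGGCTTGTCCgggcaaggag
Sesn2, antioxidant response element, chr4:132510473-132510502, minus strand: cgcagcgggcTGACAGAGCcgggcgagcgc

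The Sesn1 and Polk matches each lay in the window of 1 of the 2 start sites listed for the gene. A further search for TGATGNAA, the core of the composite site of ATF4, found it in 1 of the 10 windows, a Polk window, and in 3.97% of all windows. The genes with a half-site had both large and small changes with genistein, which are given next.

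The comparison asked how these p53 targets respond to genistein. All 10 were measured well enough to be tested, and all 10 rose (adjusted p under 0.05, by the quasi-likelihood test of edgeR, adjusted over all genes and repeats that were kept). In the same test 33.5% of 16240 genes rose and 38.2% fell. In each of the 10 both genistein libraries lay above both untreated libraries, as they did in 40.7% of the genes tested. Under the study's thresholds, which also ask for a log2 fold change over 1 and for more than 100 normalised counts on average, 6 of the 10 were higher and 0 lower, against 3.92% of all genes higher and 4.16% lower. The median log2 fold change was 1.68 over the 10 genes and -0.03 over all genes tested. The 10 log2 fold changes fell into 6 between 1.47 and 3.89 and 4 between 0.21 and 0.56, with none between 0.56 and 1.47. Of the 45 pairs that can be formed, 37 had separate 95% intervals and 8 had intervals that overlapped, all 8 within the larger or within the smaller changes. The differences between pairs were not tested.

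**Figure D1:**
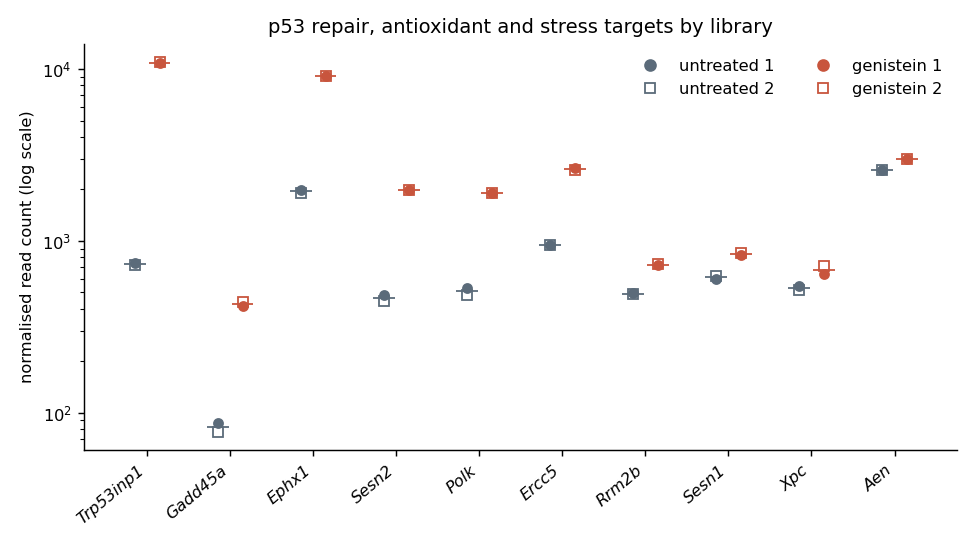
Normalised read count (log scale) of the 10 genes in each library, ordered by log2 fold change; filled circles are replicate 1, open squares replicate 2, and the short lines are group means. The genistein libraries lie above the untreated ones for every gene, from Trp53inp1 (723 and 741 against 10799 and 10882) to Aen (2571 and 2582 against 2975 and 2993).

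Trp53inp1, Gadd45a and the sestrins are the stress regulators of the group. Trp53inp1 (ENSMUSG00000028211, chr4:11156431-11174379, GRCm38) encodes a nuclear protein that helps p53 to be phosphorylated and also takes part in autophagy. It had 741 and 723 normalised read counts untreated and 10799 and 10882 with genistein, a difference far larger than the spread within either group. The log2 fold change was 3.89 (SE 0.04), a 14.8-fold rise (adjusted p = 2.02e-19, edgeR), and 0.252% of all tested genes had a larger value.

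Gadd45a (ENSMUSG00000036390, chr6:67035096-67037457) encodes a small acidic protein that binds PCNA, the Cdk1 kinase and the MAP kinase kinase kinase Map3k4. Its counts were the lowest of the 10 in both groups, at 86.9 and 77.3 normalised counts untreated and 416 and 437 with genistein. The groups stood well apart although raw counts in the untreated libraries were only 87 and 73. The change was 2.37 (SE 0.11) on the log2 scale (5.18-fold, adjusted p = 1.01e-11, edgeR), the widest error of the 10. An annotated transcript on the opposite strand, E230016M11Rik, shares 337 exon bases with Gadd45a, and its raw counts were 41 and 30 untreated and 39 and 42 with genistein. The strand setting of the counting is not given in the sources used here, so reads of the shared bases cannot be assigned to either gene with certainty.

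Sestrins restrain mTORC1, the kinase complex that drives growth when amino acids are plentiful, by binding the GATOR2 complex, and they also help to keep peroxiredoxins active. Sesn2 (ENSMUSG00000028893, chr4:132492032-132510501) had 480.5 and 444 normalised counts untreated and 1973 and 1977 with genistein. This was a rise of 2.09 (SE 0.06) on the log2 scale (4.27-fold, adjusted p = 1.47e-14, edgeR). Sesn1 (ENSMUSG00000038332, chr10:41809935-41908424) had 602 and 625 normalised counts untreated and 827 and 845 with genistein, so it rose by far less. That is a change of 0.45 (SE 0.06) on the log2 scale (1.36-fold, adjusted p = 3.81e-06, edgeR). The 95% intervals of the sestrin fold changes, 3.93 to 4.63 for Sesn2 and 1.25 to 1.49 for Sesn1, did not overlap. The transcript Gm12981, which lies within the Sesn2 span on the same strand and shares no exon base with it, had 14 and 10 raw counts untreated and 96 and 85 with genistein.

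Polk, Ercc5, Xpc, Rrm2b and Aen act on DNA or its precursors. Polk (ENSMUSG00000021668, chr13:96480690-96542579) encodes DNA polymerase kappa, which copies past bulky lesions in the minor groove. Its normalised counts were 531 and 486 untreated and 1892 and 1889.8 with genistein, and the genistein pair lay closer together than the untreated pair. It rose by 1.89 (SE 0.06) on the log2 scale (3.71-fold, adjusted p = 5.12e-14, edgeR).

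Ercc5 (ENSMUSG00000026048, chr1:44147744-44181260) encodes XPG, the nuclease that cuts on the 3′ side of a lesion in nucleotide excision repair. It had 949.0 and 948.6 normalised counts untreated and 2665 and 2594 with genistein. The rise was 1.47 (SE 0.04) on the log2 scale (2.77-fold, adjusted p = 4.79e-14, edgeR). Xpc (ENSMUSG00000030094, chr6:91489305-91515888) encodes the protein that first recognises distorted DNA in the same pathway. It had 546 and 517 normalised counts untreated and 640.5 and 717 with genistein, the widest gap between genistein libraries, in relation to their level, among the 10. The change was 0.35 (SE 0.07) on the log2 scale (1.27-fold, adjusted p = 0.000273, edgeR). Xpc and Ercc5 thus both rose, Ercc5 by more.

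Rrm2b (ENSMUSG00000022292, chr15:37923952-37961318) encodes p53R2, the small subunit of ribonucleotide reductase that makes deoxynucleotides outside S phase. It had 497 and 487 normalised counts untreated and 717 and 735 with genistein. This was a rise of 0.56 (SE 0.06) on the log2 scale (1.47-fold, adjusted p = 4.54e-07, edgeR). Annotated transcripts of 524 other genes matched a Rrm2b transcript at 90% identity or more over at least 150 bases, so some of its reads may be shared. Nearly all of these matches were short beside the 9134 annotated exon bases of Rrm2b, such as 164 bases for Fn1 and 212 for Nanog. An annotated antisense transcript, Gm49085, shares 734 exon bases with Rrm2b and has no entry in the deposited counts. At that identity and length, 0 other genes matched for 7 of the 10. The genes matching Rrm2b included a processed pseudogene, Gm8616, over 1051 bases, which also has no entry in the deposited counts. For Aen 8 other genes matched, and for Gadd45a only the overlapping E230016M11Rik.

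Aen (ENSMUSG00000030609, chr7:78895854-78911209) encodes a nuclease that p53 induces during apoptosis. It had the smallest change, from 2571 and 2582 normalised counts untreated to 2993 and 2975 with genistein. The libraries of a group differed by less than the groups did. That is a change of 0.21 (SE 0.04) on the log2 scale (1.16-fold, 95% interval 1.10 to 1.22, adjusted p = 5.11e-05, edgeR), and 35.7% of all tested genes had a larger value.

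Ephx1 (ENSMUSG00000038776, chr1:180976210-181020904) encodes microsomal epoxide hydrolase, which opens reactive epoxides to diols and is the detoxifying enzyme of the group. It had 1971 and 1901 normalised counts untreated and 9083 and 9111 with genistein. It rose by 2.23 (SE 0.03) on the log2 scale (4.70-fold, adjusted p = 1.64e-17, edgeR). A pseudogene, Gm36961, shares 72 exon bases with it and had at most 2 counts in a library.

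Levels were compared between genes per kilobase of exon, counting all annotated exons, which understates genes with long unused exons. In untreated cells Ephx1 was highest at 993 ± 25.2 normalised counts per kilobase (SD, n = 2), and Aen followed at 444 ± 1.32. Ercc5 (162), Sesn1 (154), Sesn2 (133), Trp53inp1 (113), Xpc (96.7), Polk (91.6), Rrm2b (53.9) and Gadd45a (46.5) came next by mean normalised counts per kilobase. Neighbours in this order had separate libraries except Xpc and Polk, whose libraries overlapped. With genistein the order was Ephx1 at 4665 ± 10.2 normalised counts per kilobase (SD, n = 2), Trp53inp1 at 1674 ± 9.12, Sesn2 at 568 ± 0.79 and Aen at 514 ± 2.23. After these came Ercc5 (448), Polk (341), Gadd45a (242), Sesn1 (209.97), Xpc (124) and Rrm2b (79.5), again by mean normalised counts per kilobase and with no overlap between neighbours. Trp53inp1 moved from place 6 to place 2, and Gadd45a from place 10 to place 7.

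Family relatives and partner subunits of the 10 genes were then compared. Of 15 relatives, 6 rose and 5 fell (adjusted p under 0.05, edgeR), and the median log2 fold change was 0.06. The shares of 40% and 33.3% are near those of all tested genes, 33.5% and 38.2%. Past all thresholds 3 of the 15 were higher and 0 lower, beside 3.92% and 4.16% of all genes. The 6 that rose were close relatives of the regulators, except Rev1 and Ephx2, the soluble epoxide hydrolase. Rev1 organises translesion polymerases and had a log2 fold change of 0.53. Ephx2 was scarce, at 13.99 and 9.53 normalised counts untreated and 24.4 and 19.2 with genistein. Its log2 fold change of 0.88 had an adjusted p of 0.032 with edgeR and of 0.24 with DESeq2. Trp53inp2, which acts in autophagy, had 320 and 317 normalised counts untreated and 1748 and 1623 with genistein, which is 2.41 (SE 0.06) on the log2 scale (adjusted p = 1.49e-14, edgeR).

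Among the sestrins, Sesn3, which is known as a FoxO target, rose from 654 and 634 to 1877 and 1869.5 normalised counts (log2 fold change 1.54). Sesn2 took 41.6% and 39.2% of the summed sestrin level per kilobase untreated and 63.2% and 62.96% with genistein. The share of Sesn1 went from 45.5% and 48.1% to 23.1% and 23.5%, and that of Sesn3 lay from 12.7% to 13.7% throughout. The summed level itself was 332 and 326 normalised counts per kilobase untreated and 898 and 904 with genistein. Per kilobase of annotated exon, the largest part was thus Sesn1 in the untreated libraries and Sesn2 in the genistein libraries. This order depends on the exon lengths. By normalised counts alone, Sesn3 was above Sesn1 (602 and 625) in the untreated libraries. With genistein it was close to Sesn2 (1973 and 1977).

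The GADD45 family has 3 genes with related roles, of which Gadd45b and Gadd45g are not classical p53 targets. Gadd45b had a log2 fold change of 0.34 and Gadd45g of 1.09, and both passed the test. Gadd45a took 4.97% and 4.70% of the summed family level per kilobase untreated and 14.3% and 15.4% with genistein. Gadd45b remained the most abundant, with 68.4% and 67.3% untreated and 50.8% in both genistein libraries.

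Ribonucleotide reductase pairs a large subunit, Rrm1, with either of its small subunits, and Rrm2 is the small subunit of S phase. Rrm2 fell from 5419 and 5089 to 3579 and 3771 normalised counts, or -0.52 (SE 0.04) on the log2 scale. Rrm1 had 11476 and 11450 normalised counts untreated and 10610 and 10742 with genistein, a log2 fold change of -0.10. Its adjusted p of 0.045 (edgeR) did not stay under the threshold in 6 of the 10 alternative fits. Rrm2b made up 2.71% and 2.82% of the small subunit level per kilobase untreated and 5.73% and 5.58% with genistein. Rrm2b and Rrm2 thus moved in opposite directions, and Rrm2 remained the larger part.

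**Figure D2:**
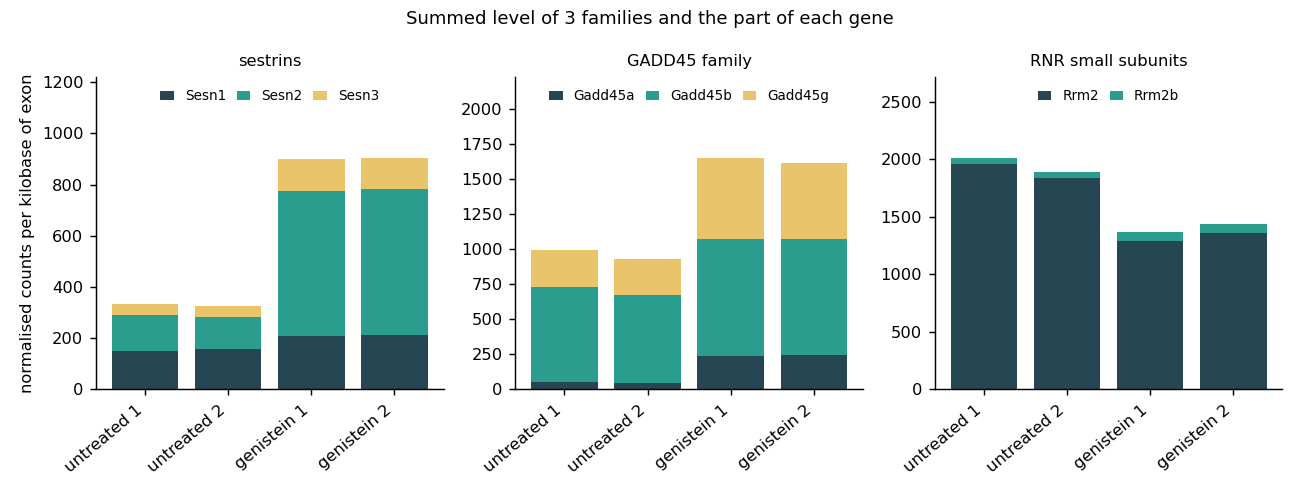
Summed level of the sestrins, the GADD45 family and the ribonucleotide reductase (RNR) small subunits in each library, in normalised counts per kilobase of exon, with the part of each gene stacked. Sesn2 is the largest part of the sestrins in the genistein libraries (63.2% and 62.96%), while Rrm2b stays a small part of the RNR small subunits (5.73% and 5.58%).

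Among the repair relatives of Polk, Ercc5, Xpc and Aen, none but Rev1 rose. The translesion polymerases Polh and Poli had log2 fold changes of -0.10 and 0.06 and did not pass the test (adjusted p = 0.069 and 0.59, edgeR). The ratio of Polk to Polh per kilobase was 0.454 and 0.430 untreated and 1.77 and 1.76 with genistein. Fen1 and Exo1, nucleases of the same superfamily as Ercc5 that act in replication and mismatch repair, fell, with log2 fold changes of -0.73 and -0.72. Xpa, the scaffold of nucleotide excision repair, had -0.14 (adjusted p = 0.26, edgeR). Isg20l2, a relative of Aen that processes ribosomal RNA, fell by 0.89 on the log2 scale, and Isg20, another relative and the neighbour of Aen on the chromosome, had 0.14 (adjusted p = 0.36, edgeR).

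**Figure D3:**
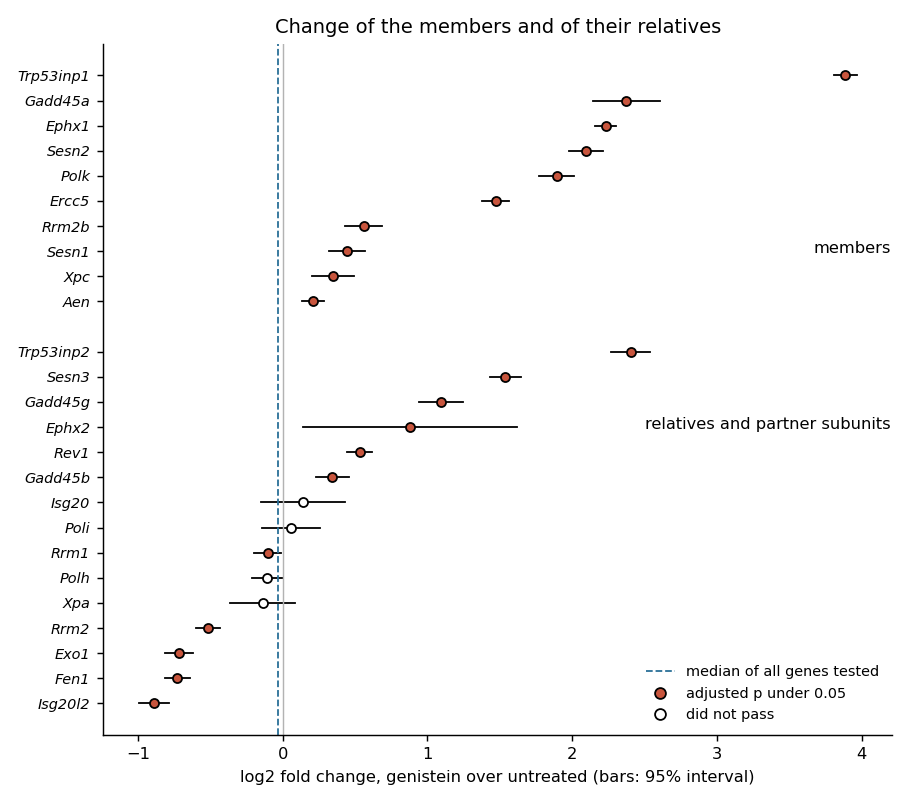
Log2 fold change (genistein over untreated) of the 10 genes, at the top, and of 15 relatives and partner subunits; bars are 95% intervals, filled points passed an adjusted p of 0.05 and the dashed line is the median of all genes tested (-0.03). The 10 genes all lie right of 0, while the relatives spread from -0.89 (Isg20l2) to 2.41 (Trp53inp2).

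The pathways around the 10 genes were described by lists, each counted without the 10 genes themselves. Upstream, Trp53 itself had 2426 and 2332 normalised counts untreated and 2024 and 1851 with genistein, or -0.30 on the log2 scale (adjusted p = 2.14e-05, edgeR). Of the 13 genes of the p53 circuit, 6 rose and 5 fell, with a median log2 fold change of 0.06. These shares were 46.2% and 38.5%, beside 33.5% and 38.2% of all tested genes. Past all thresholds 2 of the 13 were higher and 0 lower, beside 3.92% and 4.16% of all genes. Mdm2, the ubiquitin ligase of p53, rose by a log2 fold change of 1.62, its phosphatase Ppm1d by 1.04 and its inhibitor Mdm4 by 0.51. The deubiquitinase Usp7 and the kinase Chek1 fell, with log2 fold changes of -0.80 and -0.36.

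Of 24 other p53 targets in arrest, apoptosis and metabolism, 17 rose and 6 fell, with a median log2 fold change of 1.46. These shares are 70.8% and 25%, beside 33.5% and 38.2% of all tested genes. Past all thresholds 14 of the 24 were higher and 1 lower, beside 3.92% and 4.16% of all genes. The highest were Dcxr, a carbonyl reductase (3.47), the cell cycle inhibitor Cdkn1a (2.78) and the death receptor Eda2r (2.51). Those that fell most, among genes with a mean normalised count over 100, were Sco2 (-1.18), which assembles cytochrome c oxidase, Fdxr (-0.69), a mitochondrial reductase, and the kinase Plk3 (-0.51). Most of these 24 thus rose, as did all of the 10 described here, and some known p53 targets fell. Both sets were chosen with earlier results of these data known, and the difference between them was not tested.

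Most other factors of nucleotide excision repair were lower, beside the rise of Ercc5 and Xpc. Of the other 26 factors, 3 rose and 20 fell, with a median log2 fold change of -0.35, beside 33.5% and 38.2% of all genes. Those that rose were Uvssa (0.57) and Ercc6, both of the transcription-coupled branch, and Ddb2 (0.37). The last recognises ultraviolet damage and was also counted in the list of other p53 targets. Ddb2 was at 141 and 144 normalised counts untreated and 173 and 196 with genistein, and its adjusted p was 0.0096 with edgeR, 0.11 with DESeq2 and 0.10 without genistein replicate 2. Rad23b, which binds and stabilises Xpc protein, fell, with a log2 fold change of -0.82, and so did Gtf2h2 of TFIIH (-0.78). Rad23b went from 7459 and 7258 to 4144 and 4179 normalised counts.

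In deoxynucleotide supply 13 of the other 14 genes fell, or 92.9%, beside 38.2% of all tested genes. Rrm1, at an adjusted p of 0.045 (edgeR), is among the 13 and lost its call in some alternative fits, as given above. The median log2 fold change of the 14 was -0.55, and Rrm2b had the highest value of the whole list. Tk2, the mitochondrial thymidine kinase, was the other gene that rose (0.29). The largest falls were those of the deaminase Dctd (-1.46), the nucleoside diphosphate kinase Nme1 (-0.93) and Tk1, the thymidine kinase of S phase (-0.91). In translesion synthesis 4 of the other 14 genes rose and 6 fell, with a median of -0.07. These shares, 28.6% and 42.9%, are near the 33.5% and 38.2% of all tested genes. The lower count was 3 without untreated replicate 1, and 3 with library totals, with scaling from genes alone or with DESeq2. Primpol (0.95), a primase that restarts stalled forks, and Rev1 were the highest beside Polk. The deubiquitinase Usp1 (-1.11), the sliding clamp Pcna (-0.70) and Mad2l2 (-0.58), a subunit of polymerase zeta, fell.

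Around the sestrins, 8 of 20 other genes of amino acid sensing and mTORC1 restraint rose and 6 fell, with a median log2 fold change of 0.00. These shares, 40% and 30%, are near the 33.5% and 38.2% of all tested genes. Past all thresholds 3 of the 20 were higher and 0 lower, beside 3.92% and 4.16% of all genes. Ddit4, an mTORC1 inhibitor, rose from 466 and 464 to 1969 and 1889.8 normalised counts (log2 fold change 2.05). Seh1l (-0.77), Sec13 (-0.75) and Mios (-0.72), subunits of the GATOR2 complex that sestrins bind, fell. Among the other 13 genes of the GADD45 kinase branch 4 rose and 5 fell, or 30.8% and 38.5%, again near the shares of all tested genes. Of these 13, 2 were higher and 0 lower past all thresholds. Foxo3, a transcription factor of stress resistance, rose (1.21), and Gadd45gip1 (-0.93), which is named for binding GADD45 proteins, the demethylation enzyme Tdg (-0.52) and Zfp36l1 (-0.43), which destabilises mRNA, fell.

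Because Sesn2, Gadd45a and Ephx1 also respond to ATF4 or NRF2, lists of these factors and their targets were counted. Of the 16 other genes of the ATF4 list, which holds Atf4 itself among those that fell, 9 rose and 7 fell (4 with library totals), with a median log2 fold change of 0.24. The shares were 56.25% and 43.75%, beside 33.5% and 38.2% of all tested genes. Ddit3, the transcription factor CHOP, rose from 494 and 486 to 2118 and 2126 normalised counts (2.11), and Vldlr, a lipoprotein receptor, rose (1.78). The serine and folate enzymes Shmt2 (-0.72), Mthfd2 (-0.71) and Phgdh (-0.51) fell. Of the 21 other genes of the NRF2 list, which holds the NRF2 gene Nfe2l2 among those that rose, 16 rose and 3 fell, with a median of 0.40. The shares were 76.2% and 14.3%. Nqo1, a quinone reductase, rose by a log2 fold change of 1.66 and Hmox1, heme oxygenase, by 1.45, while Gsr (-0.54) and Tkt (-0.30) fell. Ephx1 had the highest log2 fold change of the whole NRF2 list. G6pdx, at -0.12, was the third gene that fell, and it did not pass the test in 3 of the 10 alternative fits. Which factor acted on a gene was not tested.

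**Figure D4:**
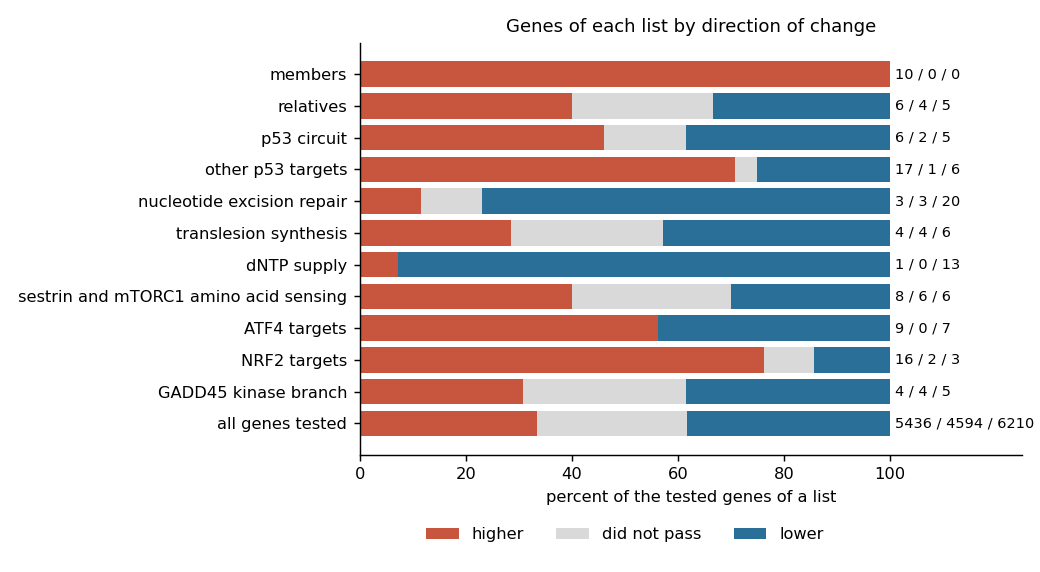
Share of the tested genes of each list that were higher, did not pass or were lower (adjusted p under 0.05, edgeR), with the counts at the right in that order; the 10 genes are the top bar and are left out of the lists under it. Nucleotide excision repair (3 higher, 20 lower) and deoxynucleotide supply (1 higher, 13 lower) lie to the lower side, and the NRF2 list (16 higher, 3 lower) and other p53 targets (17 higher, 6 lower) to the higher side.

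The 10 genes lie on 7 chromosomes, and their nearest protein-coding neighbours were compared to see whether the change extended beyond the gene. Of 20 neighbours 17 were tested, and 3 rose, 9 fell and 5 did not pass, with a median log2 fold change of -0.18. Of all tested genes, 33.5% rose and 38.2% fell. None of the 3 that rose passed all thresholds, while 3 neighbours were lower past all of them. These were Ndufaf6 and Ccne2 beside Trp53inp1 (-1.12 and -1.41) and Serbp1 beside Gadd45a (-1.10). Of all tested genes, 3.92% were higher and 4.16% lower past all thresholds, so 0 of 17 higher is near the share of all genes. Ccne2, which encodes cyclin E2, starts 16.97 kb beyond the end of Trp53inp1 and had 1183 and 1089 normalised counts untreated and 399 and 459.5 with genistein.

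In 3 cases the neighbour is transcribed away from the gene from a start within 100 bases of it. Col4a3bp, 38 bases from Polk, was at -0.18 on the log2 scale (adjusted p = 0.0085, edgeR), beside 1.89 for Polk. Lsm3, 39 bases from Xpc, fell from 1360 and 1403 to 709 and 712 normalised counts (-0.96). Cep57l1, 63 bases from Sesn1, had -0.11 (adjusted p = 0.13, edgeR). None of these head-to-head partners rose with its p53 target. The neighbours that rose were Gng12 beside Gadd45a (0.14), Atpif1 beside Sesn2 (0.24) and the scarce Armc2 beside Sesn1, with 6 and 9 raw counts untreated and 26 and 14 with genistein (1.32).

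**Figure D5:**
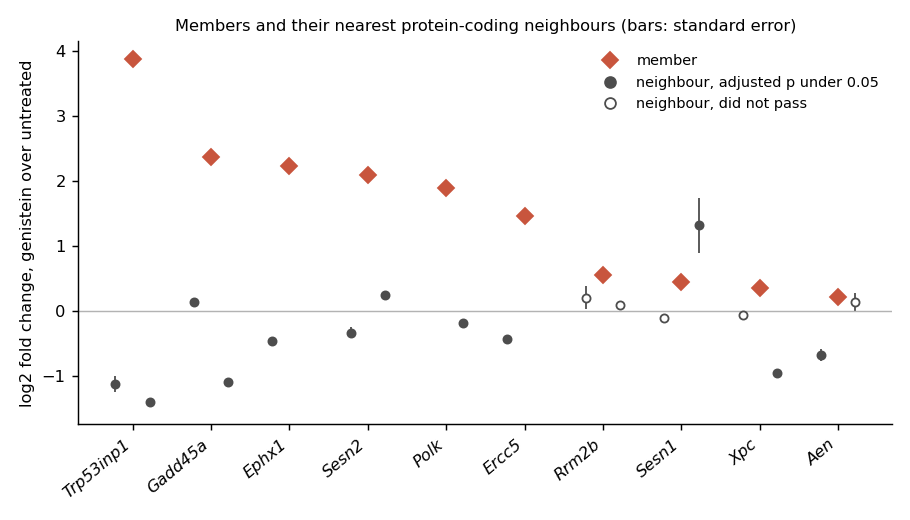
Log2 fold change (genistein over untreated) of each of the 10 genes (diamonds) and of its tested protein-coding neighbours on the chromosome (circles, with standard errors); filled circles passed an adjusted p of 0.05. The 6 genes with log2 fold changes of 1.47 or more stand above neighbours that lie between -1.41 and 0.24.

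The 5 other genes whose centred log2 profile over the 4 libraries was nearest to the mean profile of the 10 were Dglucy, Zfp365, Sesn3, Aldh6a1 and Man2b1, at Euclidean distances from 0.020 to 0.046 on the log2 scale. Their log2 fold changes lay from 1.52 to 1.57. Zfp365 and Sesn3 were also in the lists above. With 4 libraries in 2 groups this likeness is little more than a like fold change and a like spread.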

How the data were processed

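Ribosomal RNA was depleted by the authors, and paired ends of total RNA were trimmed with Trim Galore, aligned with STAR to mm10 with reads of many alignments kept, and counted over Gencode genes and repeats with TEtranscripts. The deposited values are raw counts, not normalised, in 49383 entries, and 1 unnamed entry (0.00208% to 0.00314% of a library) was left out. PCR reads carry no molecular identifiers, so errors from counting alone would be lower limits. The errors given here come from the fit or from the spread between libraries.

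Genes and repeats were fitted together with edgeR 4.0.16 in R 4.3.3: filterByExpr by group (16240 genes and 1118 repeats kept), TMM scaling, the quasi-likelihood test and Benjamini-Hochberg adjustment over all kept entries. A call is an adjusted p under 0.05, and the study's methods also ask for a log2 fold change over 1 either way and an average above 100 normalised counts. Normalised counts are rescaled so that each library has the mean effective size. Standard errors (SE) are the log2 fold change over the root of F. An exact permutation test of 2 against 2 libraries cannot go below p = 0.333, so it was not used. Names, coordinates and exon lengths come from GENCODE M21 on GRCm38, the assembly of mm10, and similar transcripts were found with blastn 2.17.0. The study counted with an earlier Gencode release, so these exon lengths may differ from the exons that were counted. In simulated data of 17358 entries 100 of 100 genes changed by 2-fold were called, and 5 of 17158 unchanged entries. The changed entries had mean counts over 100, the dispersion was assumed, and far fewer entries changed than were called in the real libraries. The rates of the simulation therefore need not hold for the real libraries.

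The 10 genes and all lists were chosen with earlier results of these data known, and the motifs after seeing the values. No set test was run. Named are the 10 genes, their relatives, up to 3 called genes in each direction of a list with a mean normalised count over 100, the neighbours and the 5 genes of nearest profile. A gene that this rule names is not reported here. Ercc6, Kdr, Atf4, Nfe2l2 and transcripts that overlap or resemble the 10 were named after their values were seen. Alternatives covered scaling, the filter, DESeq2 1.42.0, a replicate block, thresholds and leaving out each library. A further fit tested against a log2 fold change of 1 and is not among the 10 alternative fits that are counted. The smaller changes, those of Aen (0.21), Xpc (0.35), Sesn1 (0.45) and Rrm2b (0.56), lie under that limit. Replicates of a group were separate libraries (chi-square per degree of freedom 5.76 untreated and 13.2 genistein).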

Additional observations from a re-analysis of the deposited data

How the results depend on the processing

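All 10 genes stayed higher with an adjusted p under 0.05 in each of the 10 alternative fits, and 6 of them past all thresholds, except that 5 passed where the mean normalised count had to be over 1000. Their median log2 fold change, 1.68, was 1.75 with library totals and 1.73 with factors from genes alone, and it lay from 1.65 to 1.71 in the fits that each left out a library. Aen lay from 0.19 to 0.28 and Xpc from 0.27 to 0.44 over the fits. In translesion synthesis the count of lower genes was 6 and became 3 with library totals, with factors from genes alone and with DESeq2, and 3 to 6 in the fits without a library, lowest without untreated replicate 1. The count of lower genes in the ATF4 list was 7 and became 4 with library totals. The cause was not tested. With the replicate block the counts were 10 genes higher and 6 past all thresholds, and the median was 1.68. Same-numbered libraries deviated with a correlation of -0.03 over 2 pairs, and pairing by number was therefore not used. Among named genes, the log2 fold change of Poli, which was never called, reversed to -0.025 without untreated replicate 1. The log2 fold change of Rrm1 lost its call under the block (adjusted p = 0.13, edgeR) and, over its alternatives, in 6 of 10 fits. Genes under 100 normalised counts, such as Ephx2, are limited by depth.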
